A study of Homo sapiens with 4 samples.

Results

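The effect of an added microRNA on messenger RNA levels was examined by setting the array of HuCCT1 cells that had received Pre-miR-376c against the array of cells that had received Pre-miR negative control. These are 2 of the 4 arrays in the study, chosen by their labelled transfections, and the other 2 held cells given siGRB2 or a siRNA negative control. HuCCT1 is an established line of human intrahepatic cholangiocarcinoma, a cancer of bile duct cells. All cells were transfected at 30 nM with Lipofectamine 2000, were moved 24 h later to medium with 0.1% fetal bovine serum and 5 ng/ml EGF, and were harvested after a further 24 h. Each transfection had 1 culture and 1 array, so the arrays give the difference between 2 cultures and allow no p-value, and for each gene they measure the RNA of the whole culture.

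A microRNA guides the silencing complex to messenger RNAs that pair with its seed, a short stretch near its 5′ end, and these messages are then translated less and often degraded. GRB2 is an adaptor protein that binds phosphorylated EGF receptor and brings the exchange factor SOS to RAS, which starts the RAF, MEK and ERK kinase cascade. The question behind the comparison was which transcripts move in EGF-treated cells when the microRNA is restored, with GRB2 as the target of interest.

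The added microRNA and its closest relatives are shown because the seed, in capitals (bases 2 to 8), is the part that selects targets. The mature sequences are those of RefSeq on GRCh38.p14, and miR-376c-3p lies at chr14:101039732-101039752 on the plus strand.
hsa-miR-376c-3p: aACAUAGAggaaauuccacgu
hsa-miR-376a-3p: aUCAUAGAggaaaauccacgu
hsa-miR-376b-3p: aUCAUAGAggaaaauccauguu
The seeds of miR-376a-3p and miR-376b-3p are the same, and that of miR-376c-3p is different. No other mature microRNA in the RefSeq table had the seed of miR-376c-3p.

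Values are log2 signals relative to the 75th percentile of the same array, and a difference is the Pre-miR-376c value minus the Pre-miR negative control value. Of 34127 probes, 22235 were well above background on both arrays and were measured, and 2171 more were detected on only 1 of the 2 arrays and were not used. The measured probes named 14030 genes, whose value is the mean difference of their probes. The 75th percentile signal was 2065 with Pre-miR-376c, and 2689 on the array of its control, against 1995 with siGRB2 and 1719 with siRNA negative control. The siRNA negative control array stood apart from the other 3: among 13602 genes detected on all 4 arrays, 910 were at least 1.5-fold lower and 743 at least 1.5-fold higher there than on each other array, against 31 to 81 and 42 to 87 for the other arrays. It is used below only as a second control, with that limit.

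Markers of the labelled cell type were present. All 9 markers of biliary epithelium chosen for this check were detected on both arrays, among them the duct keratins KRT19 and KRT7. The differences of these 9 ran from -0.12 to 0.40. A longer biliary list, described below, ranged more widely, with CFTR at -1.31, MUC1 at -0.50, CLDN4 at -0.42 and PROM1 at 0.82. SPP1 of that list was not measured. Of 6 hepatocyte markers, APOA1 and CYP3A4 were detected on both arrays, and ALB, APOB, TTR and FGB on neither. A longer hepatocyte list, described below, also held SERPINA1, at 2.02 with Pre-miR-376c and 2.06 with its control, and the dimmer ASGR1 and CPS1. Of the fibroblast markers only COL1A1 was detected, while COL1A2, DCN and PDGFRB were not. Among leukocyte and endothelial markers PTPRC, CD3E, CD14, CDH5 and VWF were detected on both arrays, all below the 75th percentile, with differences from -0.61 to 0.19.

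The difference between the arrays was modest for most genes. More genes passed the 1.5-fold limit downward than upward, while past 3-fold 30 probes were lower and 60 higher. The SD of all probe differences was 0.375, and the median was -0.03 for probes and -0.02 for genes. In all, 380 probes (1.71%) were at least 2-fold apart. At least 2-fold lower with Pre-miR-376c were 201 probes (0.904% of those measured) and at least 2-fold higher 179 (0.805%). By gene, 1176 (8.38%) passed a 1.5-fold limit with every measured probe on the same side of 0: 748 were lower (5.33% of the genes) and 428 were higher (3.05%). These shares are the background for all gene lists below, and "lower" and "higher" of a gene mean this 1.5-fold rule. Centring the arrays on their medians instead of the 75th percentile raised the median of all genes by 0.11, gave 132 probes at least 2-fold lower and 239 higher, and turned the split to 451 lower and 738 higher.

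Probes of one gene gave a check that does not rest on a single probe. Of 2834 genes with exactly 2 measured probes, 66.8% had both on the same side of 0, and the differences of the 2 probes correlated at r = 0.47 across genes, which are not independent replicates. Among the 3363 genes with 2 or more probes, 139 were lower and 59 higher by the rule. Where the first of 2 probes passed 1.5-fold, in 234 genes, the second had the same sign in 209 and also passed in 85 (36.3%).

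**Figure D1:**
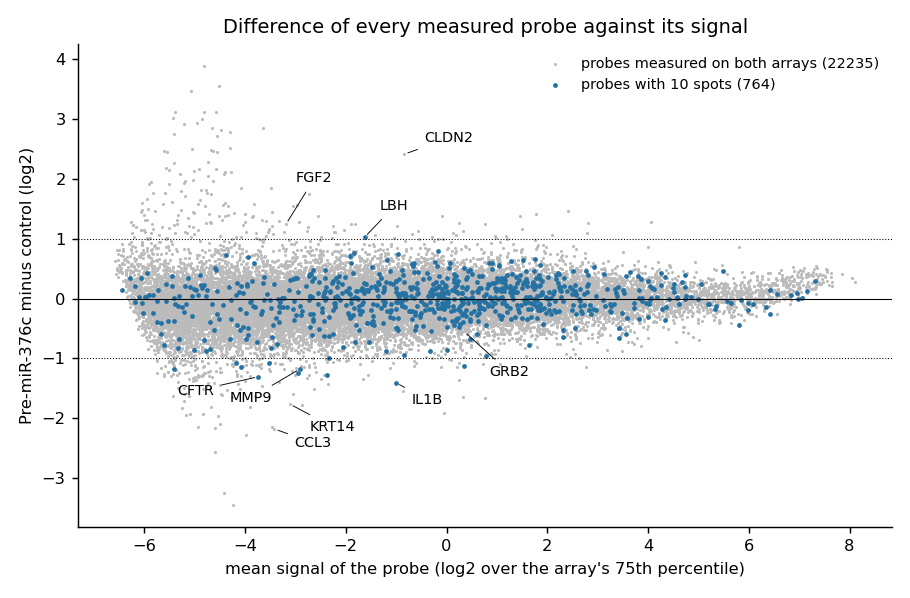
Each point is a probe measured on both arrays, with its mean log2 signal over the 75th percentile on the x axis and its log2 difference (Pre-miR-376c minus Pre-miR negative control) on the y axis. Dotted lines mark 2-fold, blue points are the 764 probes with 10 spots, and the points above 2 lie mostly at low signal.

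Large differences were mostly those of dim probes. With the probes in 4 bins of equal size by signal, 130 of the dimmest bin were at least 2-fold lower and 125 at least 2-fold higher, and 2 and 11 of the brightest bin. The place of the spot also moved with the result. Single-spot probes in the middle rows of the array (160 to 372 of 532) were at least 2-fold higher in 136 of 8965 cases (1.52%), and in the remaining rows in 42 of 12506 (0.336%). For probes at least 2-fold lower the shares were 1.08% and 0.752%.

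Past 3-fold, 54 of the 60 higher probes were single spots in the middle rows. Within the dimmest bin, 4.52% of the probes in the middle rows were at least 2-fold higher, against 0.465% elsewhere. Single bright negative control spots occurred on every array, with the highest processed signal at 98.4 in rows 267 to 319 for Pre-miR-376c, 82.2 in rows 426 to 478 for its control, 75.8 in rows 213 to 266 for siGRB2 and 201.7 in rows 160 to 212 for siRNA negative control. With the single spots of the middle rows left out, 104 probes were at least 2-fold lower and 43 at least 2-fold higher, and 509 genes were lower and 227 higher. Probes printed in 10 places, which do not depend on one position, were at least 2-fold lower in 10 of 764 cases and at least 2-fold higher in 1. The part of position in any single gene's value was not tested, so genes that rest on a single spot in these rows are named as such.

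GRB2 was lower with Pre-miR-376c than with Pre-miR negative control, by less than the 1.5-fold limit. Its 1 probe stood at 0.07 with Pre-miR-376c, 0.62 with Pre-miR negative control, -0.65 with siGRB2 and -0.10 with siRNA negative control. The difference of -0.55, or 68.3% of the control, carries an error of 0.20 by the scanner software's own estimate for the 2 spots. The siGRB2 array was the lowest of the 4. The Pre-miR negative control array was the highest, and against siRNA negative control the Pre-miR-376c array was 0.17 higher.

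The listed genes of the EGF receptor pathway down to ERK, which include some of its brakes, lay lower as a group by small amounts. All 24 listed genes were measured, and 20 were below 0, where 53.2% of all genes were. The median was -0.29, and stayed between -0.33 and -0.17 under the 5 other scalings. By the 1.5-fold rule 2 were lower and none was higher. Set against siRNA negative control the median of the same genes was 0.16. For 12 of the 24 the Pre-miR negative control array was the highest of the 4, against 21.5% of all genes detected on all 4.

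At the receptor, the 3 probes of EGFR differed by -0.17, -0.46 and -0.49, but against siRNA negative control its gene value was 0.14. ERBB3 had 1 probe on either side of 0, at -0.54 and 0.07, and ERBB2, a co-receptor that binds no ligand itself, stood at -0.11. CBLB, a ubiquitin ligase that restrains receptor signalling, was lower by both of its probes (-0.90 and -0.62). Among the adaptors and exchange factors that work beside GRB2, SHC1 was at -0.27, GAB2 at -0.38, SOS1 at -0.32 and SOS2 at -0.32. None of these 4 passed the 1.5-fold rule.

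Below the adaptors, NRAS, a RAS gene, stood at 0.42 with probes at 0.34 and 0.51, and so did not share the lower values of the receptor and adaptor genes. MAPK3, which encodes ERK1, was lower, at -2.55 with Pre-miR-376c against -1.96 for its control. Its probe is printed in 10 spots. MAPK3 was -3.56 on the siRNA negative control array, which put the Pre-miR-376c array 1.003 above it.

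Transcripts that ERK induces moved less. Of 26 measured, JUNB was the only one past the rule (-0.59, with 1 spot in the middle rows), and the median was -0.12, or 0.13 against siRNA negative control. HBEGF, an EGF family ligand, was at -0.51, the growth regulator MYC at 0.01, and FOS at 0.45. Other receptor tyrosine kinases and their ligands had 2 lower genes and 1 higher of 34, with a median of -0.14. EPHA4, an ephrin receptor printed in 10 spots, was lower by 0.88 on the log2 scale, at -1.65 against -0.77, and was also lower than with siRNA negative control (-1.15).

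**Figure D2:**
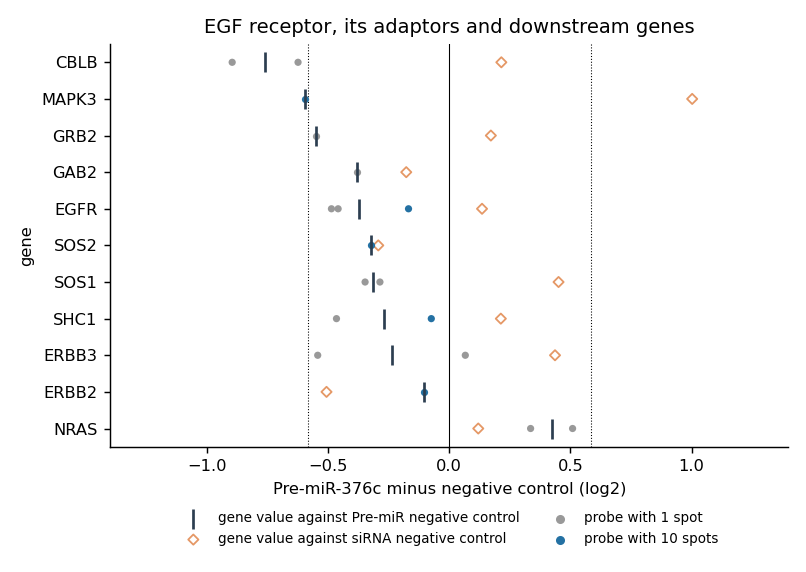
Log2 difference between Pre-miR-376c and a negative control for the 11 genes of the EGF receptor pathway described in the text, with vertical ticks for the gene value against Pre-miR negative control, points for its probes (blue with 10 spots) and open diamonds for the gene value against siRNA negative control. Dotted lines mark 1.5-fold, and 10 of the 11 ticks lie below 0, all but that of NRAS, while the diamonds scatter to both sides.

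In the list of the interleukin-1 and NF-kB response, which holds cytokines, chemokines and other response genes, 7 of 33 measured genes were lower and 2 higher. IL1B, the pro-inflammatory cytokine, had the lowest difference of the probes printed in 10 spots. It stood at -1.70 with Pre-miR-376c, -0.29 with Pre-miR negative control, -1.21 with siGRB2 and -0.04 with siRNA negative control. The Pre-miR-376c and siGRB2 arrays were both below both controls. The study chose IL1B and MMP9 from the genes lower with both treatments on these same arrays, so this pattern on the arrays follows from the choice. The study then measured both transcripts by real-time PCR and reported each as significantly reduced by either treatment. On the arrays the IL1B difference was -1.41 ± 0.03 (SE over spots), or 37.6% of the control, and -1.66 against siRNA negative control.

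IL1A, the sister cytokine, stood at -2.82 against -1.84, and was lower by 0.99 on the log2 scale. PTGS2, the inducible cyclooxygenase, was dim on every array and lower at -5.16 against -4.47. CCL3, a chemokine for macrophages, was at -4.50 with Pre-miR-376c, -2.32 with Pre-miR negative control, -4.26 with siGRB2 and -3.39 with siRNA negative control, on a single spot. It was among the 3 lowest named probes of the comparison, at -2.18.

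The neutrophil chemokines were lower in part. CXCL1 was lower by both probes (-1.03 and -0.65), and CXCL5 (-0.66, a single spot in the middle rows) and CXCL6 (-0.72) by 1 each. CXCL8 at 0.08, CXCL2 at 0.06 and CXCL3 at 0.23 were not, and CXCL6 was 0.85 above siRNA negative control. In the other direction, the monocyte chemokine CCL2 was higher in 10 spots (-4.02 against -4.75, a difference of 0.72 ± 0.06, SE over spots), and the mitochondrial superoxide dismutase SOD2 was higher at 0.63. The median of the whole list was -0.02, the same as over all genes.

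Among extracellular and membrane proteases and their regulators, 6 of 25 measured genes were lower and 3 higher, and the median was -0.13. MMP9, the gelatinase that degrades basement membrane collagen, stood at -3.49 with Pre-miR-376c, -2.32 with Pre-miR negative control, -3.36 with siGRB2 and -2.05 with siRNA negative control in 10 spots. The difference was -1.18 ± 0.03 (SE over spots), or 44.3% of the control. As for IL1B, the Pre-miR-376c and siGRB2 arrays lay below both controls, which again follows from how the study chose the gene.

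TMPRSS4, a membrane serine protease, was lower by both probes (-1.08 and -0.63) and was below all 3 other arrays. Also lower were TMPRSS2 (-0.77), another enzyme of that class, the urokinase gene PLAU (-0.62, probes at -0.98 and -0.26) and MMP14 (-0.59, a single spot in the middle rows). Those 3 were not below siRNA negative control, against which they stood at 0.14, 0.06 and 0.35. Higher were the sheddase ADAM17 (0.62), the epithelial protease matrilysin, MMP7 (0.63), and MMP11 (1.19, a dim single spot in the middle rows).

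The 10-spot probes allow the difference to be set against the spread between spots, which was small (median SD between spots 0.049 with Pre-miR-376c against 0.054 with the control). The 10 lowest differed by -1.08 to -1.41 and the 10 highest by 0.64 to 1.03, beside errors of 0.20 to 0.33 by the scanner software's estimate. Neither error holds the spread between cultures.

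The CFTR gene, for the chloride channel of duct epithelium, was second lowest at -4.39 against -3.08 (-1.31 ± 0.04). PLAAT2, a phospholipid acyltransferase, was lower at -3.00 against -1.72, and ASGR1, the asialoglycoprotein receptor, at -4.07 against -2.99. SEMA7A, a membrane-anchored semaphorin, was lower at -0.21 against 0.91. The second control separated these genes: against it PLAAT2 stood at -0.92 and ASGR1 at -1.61, but CFTR at -0.06 and SEMA7A at -0.08.

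The other 4 lowest beside IL1B and MMP9 were TNFSF18, a ligand of the tumour necrosis factor family (-1.25), BCL2L14 (-1.18), MYPN, a sarcomere protein (-1.15), and TLR1, a Toll-like receptor (-1.08). BCL2L14 was not detected with siRNA negative control, and TNFSF18 and MYPN were 0.32 and 0.98 above that array. The highest was LBH, a transcriptional cofactor, at -1.11 against -2.14 (1.03 ± 0.02). Its signal on the other 2 arrays was -1.20 and -1.08, so the Pre-miR negative control array alone was apart. The other 2 probes of LBH moved less, by 0.33 and 0.39, and its gene value of 0.58 fell just short of the 1.5-fold limit.

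Below LBH came the nuclear pore gene NUP35 (0.80 by this probe), PRR15L (0.77), the molybdenum cofactor sulfurase gene MOCOS (0.75) and CCL2. Among the remaining 5 were CSF1R, a receptor for macrophage growth factor, MRPL19 of the mitochondrial ribosome, CTNNB1, which encodes beta-catenin, and RPAP3, at 0.64 to 0.71 by these probes. The gene value of CTNNB1, with its other probe, was 0.54. PRR15L was above all 3 other arrays, at -1.45 against -2.22, -2.15 and -2.06. NUP35, CSF1R and MRPL19 were above Pre-miR negative control and below siRNA negative control.

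Genes with several agreeing probes were the second set named. Agreement was the rule that picked them, and their probes read the same 2 cultures. Ranked by the probe that moved least, the 12 lowest had gene values from -0.77 to -1.28. L1CAM, a neural adhesion molecule found on invasive tumour cells, was lowest, with probes at -1.34 and -1.22, followed by the keratin KRT23 (-1.25 and -1.15) and AHNAK2 (-1.55 and -1.01). The others were THRA, a thyroid hormone receptor (-0.92), the cornified envelope gene SPRR2A (-1.08), CMTM3 (-0.90), the microtubule linker gene CLIP2 (-1.07) and SECISBP2L (-0.86, both probes in the middle rows). EDN1, the peptide endothelin-1 (-0.89), PXDN, a peroxidase that cross-links collagen IV (-0.83), FAM167A (-1.10) and DMAP1 (-0.77) completed them.

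Of these, PXDN and CMTM3 stood at least 1.5-fold below every other array. PXDN was at -1.95 with Pre-miR-376c, -1.12 with Pre-miR negative control, -0.89 with siGRB2 and -0.47 with siRNA negative control. CMTM3 was at 1.74, against 2.63, 2.49 and 2.38. L1CAM was different, at -3.56 with Pre-miR-376c, -2.28 with Pre-miR negative control, -2.73 with siGRB2 and -3.94 with siRNA negative control.

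The 12 highest by the same ranking had gene values from 0.74 to 1.19. FGF2, a fibroblast growth factor, was 2.29-fold higher, at -2.02 against -3.21, with probes at 1.14 and 1.24. GNA13, a G protein subunit that acts on the actin cytoskeleton, was higher at 0.24 against -0.76, with probes at 0.93 and 1.07. For both genes the other 2 arrays were near the Pre-miR-376c array (-1.87 and -1.73 for FGF2, 0.15 and 0.33 for GNA13).

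PPAT, which starts purine synthesis, behaved otherwise, at 0.26 with Pre-miR-376c against -0.70, -0.33 and -0.18. KDSR of sphingolipid synthesis (0.88), PRKDC, the catalytic subunit of the DNA-dependent kinase (0.86), NRG1, a ligand of ERBB3 (0.76), RFC3 (0.75) and the scavenger receptor gene SCARA3 (0.74) were also above both controls. ITGA6, the integrin alpha 6 chain, was 0.83 above Pre-miR negative control and 0.03 above siRNA negative control. NUP35 (0.91), the cyclin gene CCNE2 (0.74) and the fork repair gene MMS22L (0.76) were below siRNA negative control.

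Matrix genes were among the lists with the most lower members. Of 35 measured, 7 were lower and 1 higher, and the median was -0.17. The median was below 0 under every scaling (-0.22 to -0.06) and was -0.11 against siRNA negative control. THBS1, the matrix glycoprotein thrombospondin-1, was at 1.89 against 2.93, with both probes lower (-1.37 and -0.72).

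LAMA4, a laminin chain of basement membrane, was lower by all 4 probes (-0.91 to -0.51). The collagen genes COL4A6 (-1.09), COL1A1 (-1.01, a single spot in the middle rows), COL7A1 (-0.63) and COL6A2 (-0.60) and the glypican gene GPC4 (-0.78, also in the middle rows) were lower. COL4A6 and COL6A2 were above siRNA negative control. The 1 higher gene, the glypican GPC6, had probes that differed widely, at 0.17 and 2.05.

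Integrins and motility genes hardly passed the limit. Of 35 measured, ITGB6, a chain of an epithelial integrin, was lower (-0.70) and ITGA6 was higher, and the median was -0.10, which turned to 0.01 at most under other scalings and 0.12 against siRNA negative control. Epithelial junction and mesenchymal transition genes had 2 lower and 1 higher of 32. ZEB1, a repressor of epithelial genes, was lower by both probes (-1.29 and -0.59) at low signal, and the desmosomal cadherin DSC2 was lower at -0.77 (a single spot in the middle rows). CLDN2, a pore-forming claudin, stood at 0.37 with Pre-miR-376c, -2.04 with Pre-miR negative control, -0.07 with siGRB2 and -0.55 with siRNA negative control, on a single spot in the middle rows. Its difference of 2.42 therefore came largely from a low value on the Pre-miR negative control array.

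Of the keratins of stratified epithelium KRT14 and KRT17 were lower, and KRT13 (-0.50), KRT16 (-0.45), KRT15 (-0.36), KRT10 (-0.11) and KRT4 (0.0044) did not pass the limit. The duct keratins KRT7, KRT8, KRT18 and KRT19 stood at 0.27 to 0.40. KRT14 was at -3.99 with Pre-miR-376c, -2.23 with Pre-miR negative control, -0.75 with siGRB2 and -3.57 with siRNA negative control. KRT17 was at -3.38, -1.87, -0.35 and -2.74 in the same order. For both the siGRB2 array was the highest of the 4, and the Pre-miR-376c array was the lowest. With KRT23, 3 of 14 keratins were lower, and KRT80 was higher at 0.60. Keratin genes are close relatives, so that their probes may share RNA.

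Genes of cell division and of protein and amino acid supply leaned upward against Pre-miR negative control, mostly by less than 1.5-fold. Of 38 mitosis genes 34 were above 0 (46.8% of all genes were), with a median of 0.25 and 2 higher by the rule, the checkpoint gene MAD2L1 (0.59, a single spot in the middle rows) and the centriole kinase gene PLK4 (0.59). Of 42 replication genes 37 were above 0, with a median of 0.22, and CCNE2, RFC3 and the helicase cofactor gene CDC45 (0.59) were higher. MCM2 and PCNA, the helicase subunit and the sliding clamp, stood at 0.55 and 0.54. The second control changed this: against siRNA negative control the medians were 0.03 for mitosis and -0.22 for replication. For 24 of the 42 replication genes the Pre-miR negative control array was the lowest of the 4. Over all genes detected on all 4 arrays it was the lowest for 19.2%.

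Targets of ATF4, the factor that raises amino acid supply under stress, had a median above 0 against both controls, though not every member was above both. Against Pre-miR negative control 28 of 33 measured were above 0, with a median of 0.26. The median was 0.23 against siRNA negative control, where that of all genes was 0.06. NUPR1 (0.99), DDIT3, which encodes the stress factor CHOP (0.72), and the amino acid transporter gene SLC7A5 (0.72) were higher, and GDF15 was lower (-0.59, a single spot in the middle rows). DDIT3 was at 0.17 with Pre-miR-376c against -0.55, -0.44 and -0.79 on the other arrays. SLC7A11, the cystine transporter, at 0.51 and ASNS, asparagine synthetase, at 0.36 did not pass the limit. Against siRNA negative control these genes were below 0, at -0.31 and -0.62, while NUPR1, DDIT3 and SLC7A5 were above it.

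Ribosomal protein genes were near each other and none passed the limit. Of 78 measured, 68 were above 0 with a median of 0.14, but quantile normalization gave a median of -0.07. These are bright probes, and the median difference of all probes rose with signal, from -0.09 in the dimmest bin to 0.02 in the brightest. For 52 of the 78 the Pre-miR negative control array was the lowest of the 4, against 19.2% of all genes detected on all 4. Against siRNA negative control the median of the ribosomal genes was -0.01. Proteasome subunits had a median of 0.19 with 31 of 38 above 0, and PSMB2 was higher by both probes (0.60 and 0.71).

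Splicing factors of the SR and hnRNP families had a median of 0.16 with 26 of 32 above 0. HNRNPM (0.82) and HNRNPR (0.81, a single spot in the middle rows) were higher and SF3B1 was lower (-0.59). Unfolded protein response genes had a median of 0.16, which was 0.05 without the single spots of the middle rows, and PDIA4 (0.69, in those rows) and DDIT3 were higher of 25. Cholesterol and fatty acid synthesis genes had a median of 0.11 with 25 of 33 above 0, and the 2 higher genes, the desaturase gene SCD (0.83) and the elongase gene ELOVL6 (0.65), both rested on single spots in the middle rows. Against siRNA negative control the medians were -0.02 for splicing factors, -0.04 for unfolded protein response and -0.08 for cholesterol and fatty acid synthesis genes. Respiratory chain genes centred at -0.02, with 1 of 56, NDUFA6, higher (0.64, in the middle rows).

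Enzymes that handle oxidants and foreign compounds were lower in 5 of 31 cases and higher in 1. XDH, xanthine dehydrogenase, which makes uric acid, was at -2.19 with Pre-miR-376c, -0.91 with Pre-miR negative control, -2.21 with siGRB2 and -1.21 with siRNA negative control. The Pre-miR-376c and siGRB2 arrays lay below both controls here too. XDH was among the genes fixed for naming as tied to the study, with earlier results of these data known. Its pattern is therefore no separate support for those of IL1B and MMP9. The aldo-keto reductase genes AKR1C1 (-0.76, both probes) and AKR1C3 (-0.60) and the thioredoxin reductase gene TXNRD1 (-0.59) were lower on probes in the middle rows, and these reductases have close relatives whose RNA their probes may share. The efflux pump gene ABCC3 was lower by both probes (-0.68 and -0.56). The malic enzyme gene ME1 was higher (0.75, in the middle rows), and the median of the list was -0.09, or 0.02 at most under other scalings.

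Regulators of cell death and p53 targets had 3 lower and 1 higher of 34. TP53INP1, a p53-induced stress protein, was at -2.90 with Pre-miR-376c and at -1.95, -1.94 and -1.72 on the other arrays, which lay together. BMF, a BH3-only activator of apoptosis, was lower by both probes (-0.83 and -0.73). CASP8, an initiator caspase, was higher (0.81) on a single spot in the middle rows.

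In the TGF-beta, activin and BMP pathway 4 of 35 genes were lower and 1 higher. The activin subunit INHBA, in 10 spots, was lower at 3.27 against 3.87, the inhibitory SMAD6 at -3.37 against -2.76, and the receptor ACVR1B at -5.81 against -5.17. ID1, a target of BMP signals, was higher at 1.49 against 0.48, with 0.71 and 1.30 on the siGRB2 and siRNA negative control arrays. GDF15 is also in this list, and the median was 0.01.

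Few genes passed the limit in the next lists, whose medians other than that of HOX genes lay between -0.10 and 0.11. Interferon response genes centred at -0.00, and the 2 higher of 36, TRIM22 (1.32) and OASL (1.05), which encode antiviral proteins, rested on single spots in the middle rows. Glycolysis and hypoxia genes had CA9, a carbonic anhydrase (-0.75, in the middle rows), lower and the hexokinase gene HK2 higher (0.66) of 32. Lysosome genes had 2 lower, PSAP (-0.70) and CTSZ (-0.60), and 1 higher of 37. Mucins and their glycosyltransferases had 2 higher of 18, GALNT12 (0.73) and GALNT3 (0.80, in the middle rows). S100 proteins and annexins had S100P (-0.74) lower and ANXA10 (0.72) and ANXA7 (0.69) higher of 22, the first 2 in the middle rows. Among Wnt genes 1 of 28 was higher, WNT3A (0.63, in the middle rows). None of 18 HOX genes passed, with a median of -0.20.

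Among biliary and ductal markers, CFTR was lower and the stem cell marker gene PROM1 higher (0.82) of 13, with a median of 0.06. Of the hepatocyte list 5 of 18 genes were measured, all below 0, with a median of -0.18 and ASGR1 past the limit. Of the leukocyte, fibroblast and endothelial markers 7 of 14 were measured, with COL1A1 and the endothelial gene VWF (-0.61) lower and a median of 0.10.

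Genes chosen for their link to the microRNA showed no common direction. Beside GRB2, 4 other genes named elsewhere as targets of miR-376c were measured: WNT3 at -0.07, TGFBR1 at -0.04, IGF1R at 0.01 and TGFA at 0.01. These differences were small beside the SD of all probes, but against siRNA negative control the 4 genes stood at -0.98, -1.02, -0.20 and 0.51 in the same order. The sixth, ACVR1C, was not measured. The study also listed proteins found in gel spots that were fainter with Pre-miR-376c, in other cultures harvested later after transfection. Many of those spots held several proteins. Of 48 measured genes for the listed proteins, none passed the limit in RNA in either direction. Of these genes 25 were below 0 and the median was -0.01, against a median of -0.02 for all genes.

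The imprinted 14q32 region, from which the microRNA is transcribed, had 4 of 7 listed genes measured, with a median of -0.46. BEGAIN (-1.38) and DIO3 (-0.95) were lower, both on dim single spots in the middle rows. The long noncoding RNA MEG3 was at 0.02 and DLK1 at 0.37. Genes that make and use microRNAs had no call among 28 and a median of -0.00, with the Argonaute gene AGO2 at -0.20 and DICER1 at -0.03.

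The 3 highest named probes were AKAP14 (3.89), DNAJC5B (3.55) and IFITM5 (3.12), at -2.88, -2.73 and -3.25 with Pre-miR-376c and at -6.28 or lower with Pre-miR negative control. They were not detected on the other 2 arrays. Each is a single spot, in rows 143, 319 and 202. The 3 lowest were ZNF235 (-2.57), CCL3 and MYO15A (-2.16), at rows 135, 506 and 387, and this ZNF235 probe was not detected with siRNA negative control. The other ZNF235 probe differed by -0.42.

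How often the Pre-miR-376c array itself stood apart was counted over the genes detected on all 4 arrays. It was at least 1.5-fold below each of the other 3 arrays for 81 genes and above each for 42, and the Pre-miR negative control array for 57 and 84. Of the 81, 12 had several probes or a 10-spot probe, and of the 42, 2 had. The better supported genes below all others included PXDN, CMTM3 and TMPRSS4 and, chosen after their values were seen, LCK, a SRC family kinase (-3.03 against -2.26, -2.01 and -2.17), and IL1RAP, a subunit of the interleukin-1 receptor (-0.59 against 0.16, 0.22 and 0.04, both probes in the middle rows). The 2 above all others were PRR15L and RNF6, a ubiquitin ligase (-1.26 against -2.36, -2.32 and -2.69, with probes that disagreed in size at 0.09 and 2.11).

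Many calls rested as much on the control array as on the treated one. Of 699 lower genes detected on all 4 arrays, the Pre-miR-376c array was the lowest for 435 (62.2%) and the Pre-miR negative control array was the highest for 467 (66.8%). Over all 13602 genes detected on all 4 arrays these shares were 20.9% and 21.5%. The rule picks genes by the difference between these 2 arrays, so larger shares among the lower genes are built in. Of the 699 lower genes, 471 were also below siRNA negative control, 215 of them past 1.5-fold. Of 361 higher genes, 274 were also above siRNA negative control and 108 past 1.5-fold. Over all genes, 1458 were lower and 1542 higher by the rule against siRNA negative control. Both differences hold the same Pre-miR-376c value, so overlap between them is partly built in, also for the genes listed next. It is no replicate check. Among the genes described, those past the 1.5-fold limit downward against either control were IL1B, IL1A, CCL3, CXCL5, MMP9, TMPRSS4, XDH, EPHA4, PXDN, CMTM3, LCK, IL1RAP, ASGR1, PLAAT2, KRT17, COL1A1, COL7A1, ZEB1, SMAD6, TP53INP1, BMF, CA9 and DIO3. Those past it upward against either control were DDIT3, NUPR1, NRG1, SCARA3, PROM1, PRR15L, RNF6, CCL2, ME1, CLDN2, GPC6, TRIM22 and WNT3A.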

How the data were processed

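HuCCT1 RNA (200 ng, Cy3) was hybridised to 4 Agilent 1-colour arrays on 1 slide with 1 scan. The authors deposited the spot intensity values of Feature Extraction (version 10.7.3.1) and a table of log2 values shifted to the 75th percentile. That table equalled the values used here plus a constant, within 0.01 for at least 99.9% of probes per array.

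From the processed intensity, the log2 value of each non-control spot was shifted to the array's 75th percentile, 289 to 329 flagged spots per array were left out, and spots of a probe were averaged (Python 3.11.15, pandas 2.3.3). No spot was saturated. A probe was measured where over 0.5 of its kept spots were well above background on both arrays. A RefSeq table (GRCh38.p14, names only) named 25422 of 34127 probes (74.5%). Counting was tested on simulated data. Background and quantile alternatives used limma 3.58.1 in R 4.3.3. With 1 array per condition, precision is limited by the number of arrays, no p-value was computed, and errors cover spots only.

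The comparison, the 35 gene lists and the rule for naming genes were chosen with earlier results of these data known. Named were genes tied to the study, among them IL1B and MMP9, which the study had picked from these same arrays. Also named were the 12 highest and lowest with several agreeing probes, the 10 highest and lowest 10-spot probes and the 3 highest and lowest named probes. In each list the members furthest past the limit or needed for its description were named too. Leaving out the middle rows and the comparison with each other array were added after seeing the data. Some genes that met the rule are not reported here, though list counts include them.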

Additional observations from a re-analysis of the deposited data

How the results depend on the processing

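No paired analysis was possible because no transfection was repeated on another array. Among the scalings, quantile normalization gave MMP9 -1.11 and the deposited log2 values gave -1.37 for IL1B and -1.14 for MMP9. A percentile over detected spots gave -1.45 and -1.22. Shifting by the median gave -1.296 and -1.06, with 132 probes at least 2-fold lower, 239 at least 2-fold higher, 451 genes lower and 738 higher. Normexp background correction gave -1.29 and -0.90, with 41 and 91 probes and 330 genes lower. Without the filter on dim probes 1023 and 869 probes were lower and higher, and 1405 and 963 genes. Above the median signal on both arrays they were 58 and 40 probes, and 435 and 260 genes. Detection on all 4 arrays left 113 probes higher. Leaving out single spots of the middle rows, a choice made after seeing the data, left 104 and 43 probes, with 227 genes higher. A 1.5-fold limit passed 1386 probes lower and 752 higher, a 3-fold limit 30 and 60, and a 2-fold limit for genes 110 and 91. None of these settings reversed a named gene, and the choice of control reversed several. Against siRNA negative control, 613 probes were lower and 654 higher, 1458 genes were lower and 1542 higher, and GRB2 stood at 0.17, IL1B at -1.66 and MMP9 at -1.45. Against the mean of both controls they stood at -0.19, -1.54 and -1.31, with 101 probes higher. Of 124 named gene values, 37 past the limit changed sign with siRNA negative control, as did EGFR (0.14) and LBH (-0.028), which had not passed. Lower genes that came out above it were CBLB at 0.21, COL4A6 at 0.51, COL6A2 at 0.22, CXCL6 at 0.85, DMAP1 at 0.25, DSC2 at 0.13, JUNB at 0.64, L1CAM at 0.38, MAPK3 at 1.003, MMP14 at 0.35, MYPN at 0.98, PLAU at 0.065, PSAP at 0.53, SF3B1 at 0.31, TMPRSS2 at 0.14, TNFSF18 at 0.32, TXNRD1 at 0.32, VWF at 0.13 and ZNF235 at 0.39. Higher genes that came out below it were ANXA10 at -0.60, ANXA7 at -0.57, CCNE2 at -0.13, CDC45 at -0.40, CSF1R at -0.28, FGF2 at -0.29, GALNT3 at -0.71, GNA13 at -0.091, HNRNPM at -0.47, HNRNPR at -0.00057, MAD2L1 at -0.62, MMP7 at -0.40, MMS22L at -0.23, MRPL19 at -0.93, NDUFA6 at -0.57, NUP35 at -0.42, PDIA4 at -0.70 and SCD at -0.75. Against the mean of the controls 6 changed sign: CXCL6 at 0.064, JUNB at 0.023, MAPK3 at 0.20, MAD2L1 at -0.018, MRPL19 at -0.12 and PDIA4 at -0.0066. The cause of these changes was not tested. The medians of the ATF4, matrix, mucin, mitosis and proteasome lists, and of no other, kept their sign under all 13 alternatives. Dim signal limits many of the counts, and without replicate cultures no value here has an error between cultures.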

Other observations

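Gene families read from the root of the symbol, for the 95 roots with 15 or more measured genes, gave few further groups. Of 392 ZNF genes, the largest group, most of which encode zinc finger proteins, 265 were below 0, 29 were lower by the 1.5-fold rule and 6 higher, and the median was -0.14, but against siRNA negative control the median was 0.07. The lowest median was that of 17 MYO genes, for myosins (-0.32, or -0.04 against siRNA negative control). The highest was that of 22 NUP genes, for nuclear pore proteins, with 19 above 0 and a median of 0.23, or 0.12 against siRNA negative control. The 16 INTS genes, for the Integrator complex that processes small nuclear RNAs, had a median of 0.18 against either control, with 10 above 0 and 1 higher.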
